A study of Arabidopsis thaliana with 6 samples.

Results

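The genes described here are 43 genes of the circadian clock of Arabidopsis thaliana and of its direct outputs, chosen by their gene codes for their known place in the clock, with no measured value in the rule. They are CCA1 and LHY, the REVEILLE (RVE) genes, the LNK genes, the pseudo-response regulators (PRR), the evening complex, GI with the F-box genes FKF1, ZTL and LKP2, a group of other clock regulators, and the output genes GRP7, GRP8, CDF, CO, COL, PIF4 and PIF5. All 43 codes were among the 32313 gene codes counted, and 40 of them were among the 19436 genes with enough reads to be tested. FKF1, PRR3 and RVE3 were not tested, because the filter asks for a minimum count in at least 3 libraries.

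The libraries came from whole seedlings of the Columbia ecotype, 3 from the wild type (WT) and 3 from BP12-2, a single line that the labels call a TOR knockdown. BP12 lines carry the FKBP12 protein of yeast, through which rapamycin can bind and inhibit TOR, a kinase that couples nutrients and growth. Both genotypes were 15 days old and had spent 3 days on 0.5 strength MS medium containing rapamycin at 10 µg/ml. The drug was common to all 6 libraries, and seedlings on solvent alone were not analysed here. The labels give neither the hour of harvest nor the light cycle, nor whether the 3 libraries of a genotype are separate cultures. A p-value here therefore reflects the scatter of these libraries alone, which may be technical.

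The plant clock is a set of transcription factors that repress and activate each other in turn over the day. CCA1 and LHY accumulate around dawn and repress evening genes by binding a short promoter word called the evening element, the PRR proteins follow through the day and repress CCA1 and LHY, and the evening complex of ELF3, ELF4 and LUX acts at night. Morning and evening transcripts of one plant therefore lie on opposite sides of the cycle, and the output genes carry the rhythm to growth, flowering and metabolism.

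The promoter words are shown first because the members that carry the evening element are mostly the evening-phased genes described further on. The evening element AAAATATCT, read on both strands in the 500 bases before the annotated start, was in 1315 of 31785 promoters (4.14%) and in 9 of the 43 clock genes (20.9%), with 14 matches in all. The stretches below were read from the RefSeq genome TAIR10.1, each 5′ to 3′ on the strand of its gene, with the match or its reverse complement in capitals and up to 10 bases on either side. They lie at chr5:24674802-24674830 (plus strand) for TOC1, chr5:8358715-8358743 (minus) for PRR5, chr1:25508443-25508471 (plus) for FKF1, chr3:17182979-17183007 (plus) for LUX, chr2:9266594-9266622 (minus) for GRP7, chr4:18275217-18275238 (minus) for GRP8 and chr3:489638-489666 (minus) for COL2.
TOC1: aaatatcatgAGATATTTTctccaagatg
PRR5: gattttttctAGATATTTTcttttctcca
FKF1: tgagtaggctAGATATTTTctcggaatat
LUX: tagaagatctAAAATATCTagctaactcg
GRP7: tgctccactgAGATATTTTtctttgtccc
GRP8: attcttacaaAGATATTTTttg
COL2: ataagttaccAAAATATCTtcttgttact
GRP7 held 3 matches, the farthest 76 bases before its start, and PRR5, FKF1 and RVE7 held more than 1 each. The annotated model of PRR5 begins at its coding start, with 0 bases between them, so its window may hold part of a leader. BOA and RVE7 complete the 9.

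The morning gene LHY had no evening element in that window. It held the G-box CACGTG, a word bound by light-signalling factors of the PIF and HY5 kinds, which was in 8.83% of all promoters and in 14 of the 43 clock genes (32.6%). The 250 bases before the starts of TOC1 (chr5:24674713-24674962, plus strand) and of LHY (chr1:37872-38121, minus strand) are printed below as an evening and a morning promoter of the same clock, with the evening element of TOC1 and the G-box of LHY in capitals.
TOC1 promoter: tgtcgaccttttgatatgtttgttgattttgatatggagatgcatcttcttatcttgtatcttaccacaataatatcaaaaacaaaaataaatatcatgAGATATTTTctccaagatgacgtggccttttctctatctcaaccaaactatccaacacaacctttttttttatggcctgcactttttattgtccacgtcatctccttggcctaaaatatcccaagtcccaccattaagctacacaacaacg
LHY promoter: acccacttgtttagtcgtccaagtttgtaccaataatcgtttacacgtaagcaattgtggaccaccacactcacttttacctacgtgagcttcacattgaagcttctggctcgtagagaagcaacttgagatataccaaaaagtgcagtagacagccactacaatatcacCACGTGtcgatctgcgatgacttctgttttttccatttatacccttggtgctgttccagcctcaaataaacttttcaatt
Another word, AAAAATCT, known as the CCA1 binding site, was in 11.9% of all promoters and in 7 of the 43 clock genes (16.3%). LHY was among them, with its match 429 to 422 bases before the start, outside the stretch printed above. A match is a description of the letters in the window and not a site that was shown to be bound.

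The libraries held between 6706610 and 17092773 counts. Values are CPM, read counts scaled to library size after TMM adjustment, given in the order of replicates 1, 2 and 3. Of the 6 libraries, BP12-2 replicate 1 and WT replicate 3 stood apart from the others of their genotype in clock transcripts. This was known from earlier work on these files, so the contrast between those libraries and the rest is described and not tested, and the genotype comparison is given with and without them. BP12-2 replicate 1 had the middle total of its genotype (10322303) and WT replicate 3 the largest (16371859), and the part of library size in this contrast was not tested. The TOR transcript was at 32.4, 27.8 and 32.6 CPM in BP12-2 and at 34.3, 35.9 and 38.5 CPM in WT, below WT in each BP12-2 library, and this difference (-0.22 ± 0.10 on the log2 scale, SE, n = 3 per group) was not called by edgeR (adjusted p = 0.292). Without those libraries it was -0.20 ± 0.12 (SE, n = 2 per group, edgeR adjusted p = 0.407).

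The morning genes LHY and CCA1 were low and a set of later-phased genes high in the same libraries, within each genotype. LHY and CCA1 were lowest, and PRR7, PRR5, TOC1, GI, ELF3, ELF4, LUX, GRP7 and GRP8 highest, in BP12-2 replicate 1 among the BP12-2 libraries and in WT replicate 3 among the WT libraries. This order of libraries did not hold for every clock gene. The morning gene PRR9 stayed between 42.6 and 52.7 CPM, and RVE7, a relative of LHY and CCA1, was highest in those libraries. Between genotypes none of the 40 tested clock genes passed the test. Among these 40 genes the ratio of the highest to the lowest library of a genotype ran from 1.04 for CDF3 to 18.7 for PRR5, both in WT, and was 8.34 for LHY in BP12-2.

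**Figure D1:**
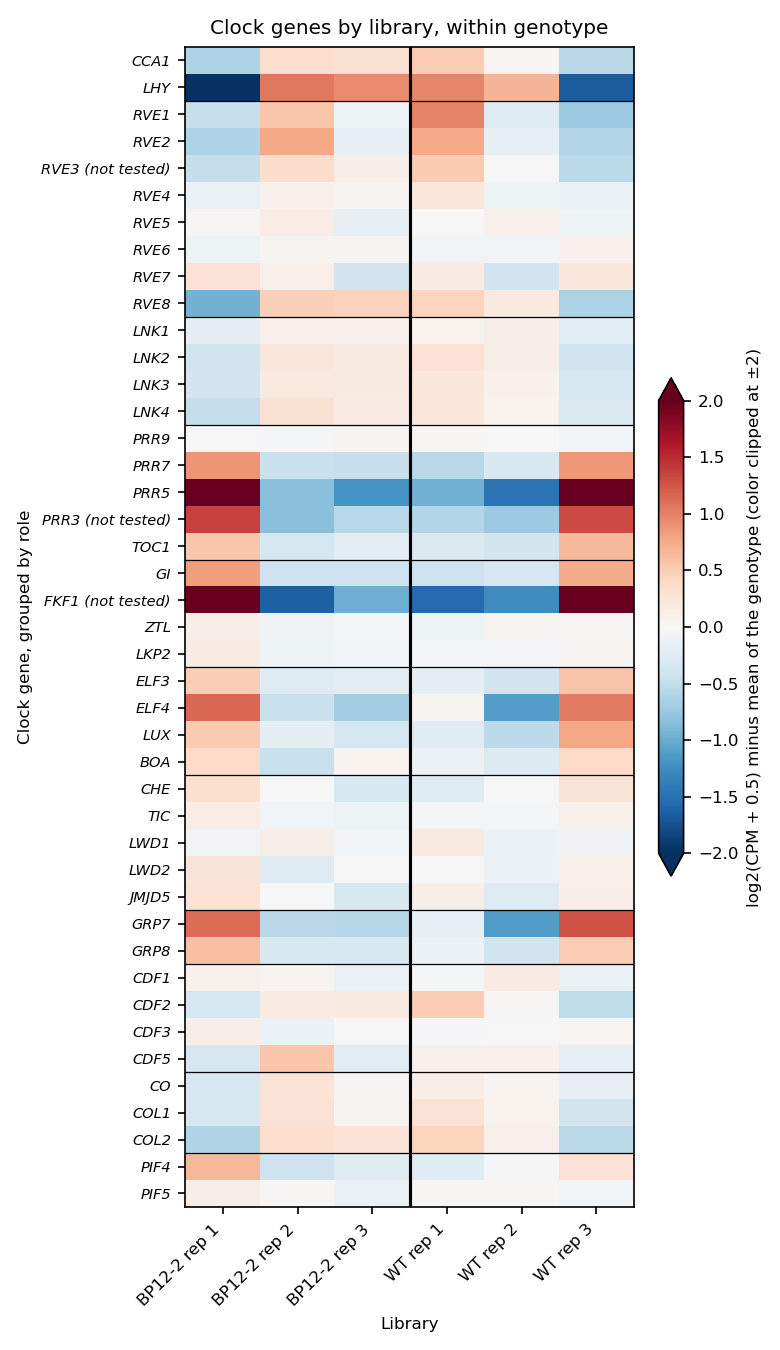
Each row is a clock gene, grouped by role, and each column a library, with the color giving log2(CPM + 0.5) minus the mean of the 3 libraries of that genotype (clipped at 2 in either direction). The columns of BP12-2 replicate 1 and WT replicate 3 carry the opposite colors to the other columns for LHY and CCA1 (low) and for PRR5, FKF1 and GRP7 (high).

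The morning genes CCA1 (AT2G46830, chr2:19245591-19248915) and LHY (AT1G01060, chr1:33365-37871) encode MYB-related repressors of the evening genes. LHY was counted at 23.2, 193 and 179 CPM in BP12-2 and at 172, 140 and 27.0 CPM in WT. BP12-2 replicate 1 and WT replicate 3 were thus low and the other 4 libraries high, and the genotypes overlapped. CCA1 was counted at 124, 241 and 236 CPM in BP12-2 and at 214, 154 and 102 CPM in WT, the same libraries being lowest but by a smaller factor, 1.94-fold in BP12-2 and 2.09-fold in WT. Per kilobase of exon, LHY stood at 0.638, 0.603, 0.641 and 0.720 of CCA1 in BP12-2 replicates 2 and 3 and WT replicates 1 and 2. It stood at 0.148 of CCA1 in BP12-2 replicate 1 and at 0.210 in WT replicate 3, so the ratio of the paired repressors also differed between the libraries. The genotype difference was 0.23 ± 0.82 for LHY and 0.36 ± 0.32 for CCA1 (log2 fold change, BP12-2 over WT, SE, n = 3 per group), with adjusted p = 0.919 and 0.606 by the edgeR quasi-likelihood test.

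Of the RVE genes, which encode relatives of CCA1 and LHY, RVE8 followed LHY. RVE8 (AT3G09600), an activator of evening genes, was at 8.98, 24.7 and 24.5 CPM in BP12-2 and at 20.7, 17.5 and 9.64 CPM in WT. RVE1 (AT5G17300), which promotes auxin synthesis, was at 30.1, 61.7 and 38.8 CPM in BP12-2 and at 62.2, 25.9 and 18.6 CPM in WT. For RVE1 the remaining libraries also differed, with BP12-2 replicate 2 and WT replicate 1 above BP12-2 replicate 3 and WT replicate 2. RVE2 (CIR1), at 3.55 to 13.5 CPM, was ordered like RVE1 in both genotypes. RVE4, an activator related to RVE8, was at 25.5, 30.1 and 29.3 CPM in BP12-2 and at 25.2, 20.1 and 19.9 CPM in WT. Its 3 BP12-2 libraries lay above the 3 WT libraries, by 0.39 ± 0.13 (log2 fold change, SE, n = 3 per group), which did not pass the edgeR test (adjusted p = 0.178). RVE5 and RVE6 differed between the libraries of a genotype by at most 1.25-fold. RVE7 differed by at most 1.61-fold and was highest in BP12-2 replicate 1 and WT replicate 3, opposite to LHY. Strand use in counting is not stated, so reads cannot be told apart from those of an overlapping gene for RVE5, 30.3% of whose exon bases overlap AT4G01290 (210 to 222 CPM), and RVE7 shares 54.7% of its 50-base words with AT3G10113. The untested RVE3 had 3 to 12 counts in each library.

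The LNK genes encode coactivators that work with RVE8 on evening genes, and all 4 were lowest in BP12-2 replicate 1 and in WT replicate 3. LNK2 (AT3G54500) was at 331, 511 and 496 CPM in BP12-2 and at 496, 438 and 308 CPM in WT. LNK1 was at 137, 165 and 164 CPM in BP12-2 and at 175, 184 and 143 CPM in WT, the smallest difference of the group. LNK3 was at 22.3, 33.7 and 33.1 CPM in BP12-2 and at 33.5, 30.4 and 22.6 CPM in WT. LNK4, at 14.2, 24.8 and 22.5 CPM in BP12-2 and at 21.6, 19.5 and 15.1 CPM in WT, had the largest difference within BP12-2 (1.75-fold). None of these differences reached 2-fold, and the genotypes overlapped for each LNK gene, with log2 fold changes between -0.11 and 0.13.

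The PRR genes encode repressors that follow one another through the day, from PRR9 in the morning to TOC1 in the evening. PRR9 (AT2G46790), the earliest, was at 43.3, 42.6 and 45.5 CPM in BP12-2 and at 52.7, 51.4 and 49.2 CPM in WT. Its values were close within a genotype, with a spread of 0.09 in BP12-2 and 0.10 in WT (log2, highest minus lowest library), and all 3 BP12-2 libraries lay below all 3 WT libraries. The difference of -0.22 ± 0.08 (log2 fold change, SE, n = 3 per group) did not pass the edgeR test (adjusted p = 0.220), and PRR9 shares 31.2% of its 50-base words with AT2G46670. PRR7 (AT5G02810) was at 212, 83.9 and 82.6 CPM in BP12-2 and at 77.7, 92.2 and 208 CPM in WT. The high libraries were thus BP12-2 replicate 1 and WT replicate 3, and their levels were alike across genotypes, as were those of the other 4 libraries. PRR5 (AT5G24470, chr5:8356204-8358546) was at 26.2, 3.16 and 2.33 CPM in BP12-2 and at 3.09, 2.01 and 37.5 CPM in WT. The ratio of the highest to the lowest library was 11.3 in BP12-2 and 18.7 in WT, the largest among the tested clock genes, and BP12-2 replicate 1 and WT replicate 3 were again the high ones. TOC1 (AT5G61380, chr5:24674963-24678550), the repressor that closes the cycle by acting on CCA1 and LHY, was at 63.1, 33.2 and 36.7 CPM in BP12-2 and at 36.3, 34.3 and 70.1 CPM in WT. The untested PRR3 had 25, 1 and 5 counts in BP12-2 and 3, 4 and 46 counts in WT, high in the same libraries as PRR5. Log2 fold changes between genotypes were -0.00 ± 0.48 for PRR7, -0.49 ± 1.20 for PRR5 and -0.09 ± 0.34 for TOC1 (SE, n = 3 per group), each smaller than its standard error.

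**Figure D2:**
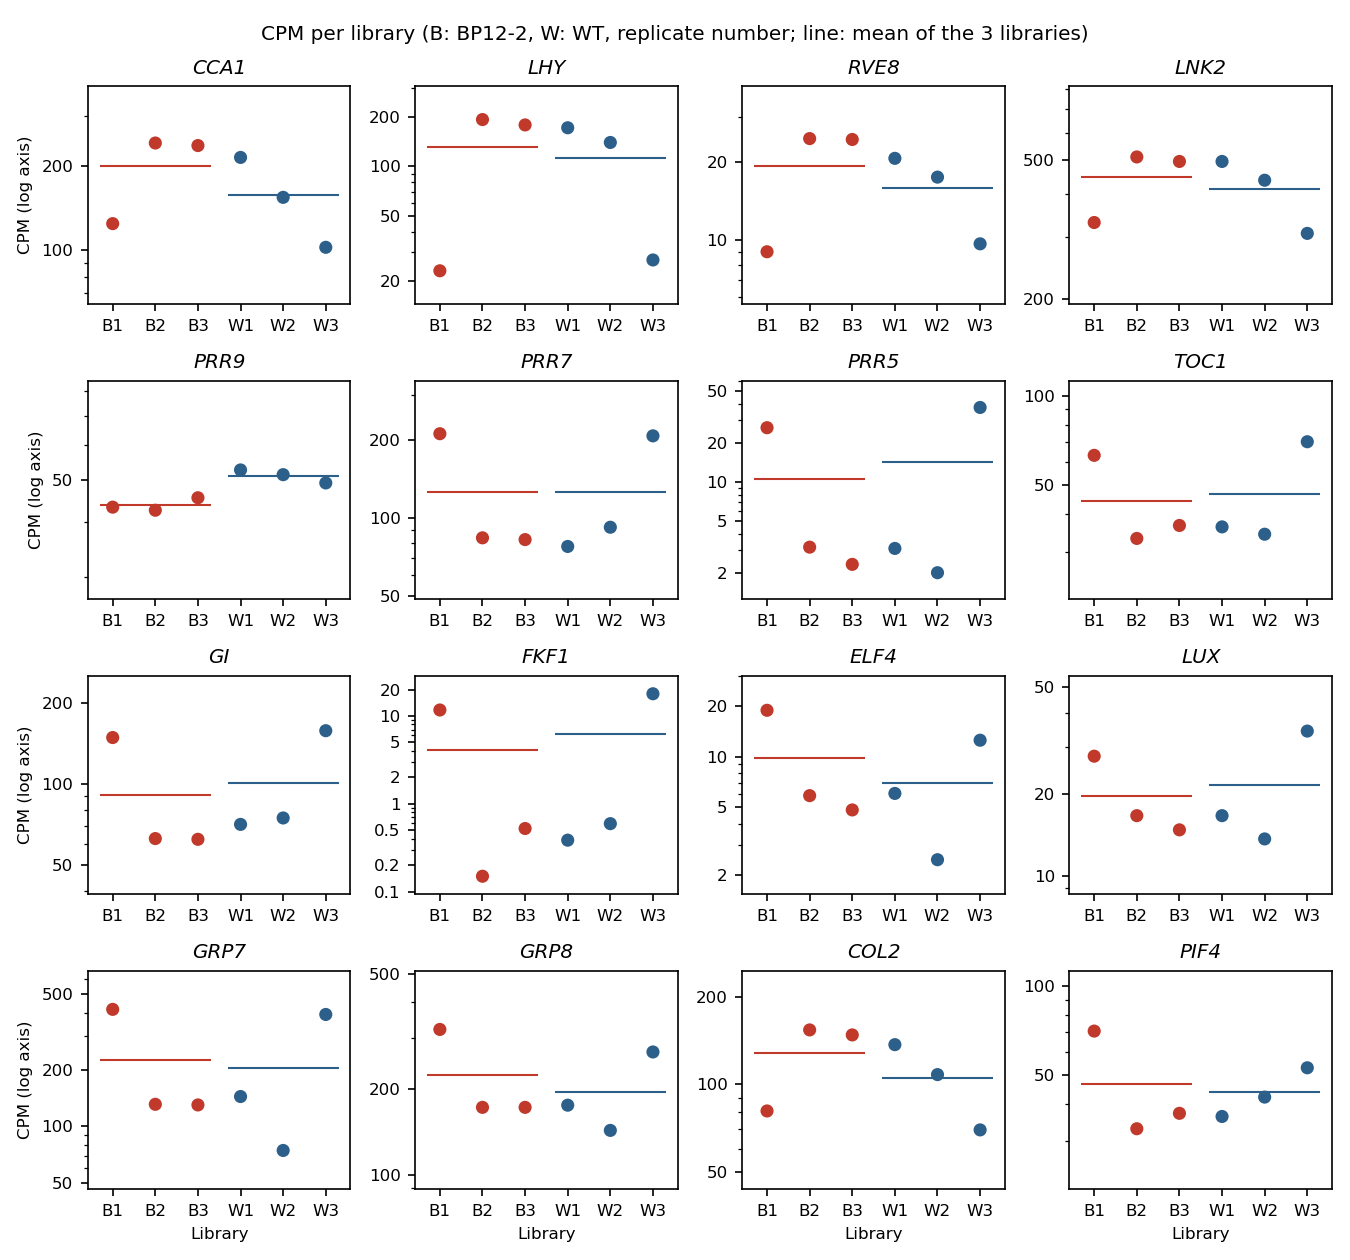
CPM on a log axis for 16 clock genes in each of the 6 libraries, with points for libraries (B for BP12-2, W for WT, with the replicate number) and lines for the mean of 3 libraries. LHY is at 23.2 and 27.0 CPM in B1 and W3, where PRR5 reaches 26.2 and 37.5 CPM, while PRR9 stays between 42.6 and 52.7 CPM.

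Set against each other per kilobase of exon, LHY and the later genes TOC1 and PRR5 stood in a different order in different libraries. LHY stood at 4.77 and 3.99 times TOC1 in BP12-2 replicates 2 and 3 and at 3.89 and 3.34 times TOC1 in WT replicates 1 and 2. In BP12-2 replicate 1 it stood at 0.301 of TOC1 and in WT replicate 3 at 0.317. The ratio of LHY to PRR5 ran from 27.3 to 37.6 in the former 4 libraries and was 0.432 and 0.354 in the latter. CCA1 remained above TOC1 in all 6 libraries, by 1.5 to 7.47 times per kilobase.

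GI and the F-box genes act on protein stability: ZTL marks TOC1 and PRR5 for degradation, FKF1 marks the CDF proteins, and GI binds and stabilizes ZTL and works with FKF1. GI (AT1G22770) was at 149, 62.7 and 62.3 CPM in BP12-2 and at 70.8, 74.8 and 158 CPM in WT. FKF1 (AT1G68050, chr1:25508639-25510907) had 117, 1 and 9 counts in BP12-2 and 3, 8 and 297 counts in WT, or 11.7, 0.150 and 0.524 CPM and 0.386, 0.595 and 17.9 CPM. It reached 10 counts only in BP12-2 replicate 1 and WT replicate 3, and its spread of 4.23 in BP12-2 and 4.37 in WT, on the scale of log2(CPM + 0.5), was the largest of the 43 genes. ZTL, which is known for a level that stays even through the day, was at 109, 95.8 and 97.5 CPM in BP12-2 and at 98.7, 110 and 107 CPM in WT, with no library apart. LKP2, a relative of ZTL, was at 41.6, 34.9 and 35.6 CPM in BP12-2 and at 37.1, 37.7 and 40 CPM in WT. Of its exon bases 15.8% overlap AT2G18917 (3.43 to 5.35 CPM). Both genotypes overlapped for each gene of the group, with log2 fold changes from -0.15 to -0.03 for the 3 tested.

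The evening complex represses growth genes and day-phased clock genes at night. ELF4 (AT2G40080) was at 18.8, 5.87 and 4.83 CPM in BP12-2 and at 6.05, 2.45 and 12.5 CPM in WT. ELF3 (AT2G25930) was at 86.3, 51.1 and 52.0 CPM in BP12-2 and at 47.4, 40.7 and 79.7 CPM in WT. LUX (AT3G46640), its DNA-binding member, was at 27.7, 16.7 and 14.8 CPM in BP12-2 and at 16.7, 13.7 and 34.3 CPM in WT. Each was highest in BP12-2 replicate 1 and WT replicate 3, and in WT each was lowest in replicate 2, by as much as 5.08-fold for ELF4. BOA, a close relative of LUX, was low, at 3.29, 1.65 and 2.56 CPM in BP12-2 and 1.29, 1.11 and 2.05 CPM in WT. It had the largest log2 fold change of the 40 tested genes in either direction (0.74 ± 0.33, SE, n = 3 per group), but the genotypes overlapped and the edgeR test was not passed (adjusted p = 0.292). Reads of neighbours cannot be told apart for BOA (45.9% of exon bases overlap AT5G59580, counted at 0.301 to 1.29 CPM) or for LUX (17.8%, AT3G46650, at 3.67 to 8.55 CPM).

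Of the other clock regulators, CHE, a TCP factor known to bind the CCA1 promoter, was at 56.3, 44.5 and 36.3 CPM in BP12-2 and at 41.9, 49.8 and 59.4 CPM in WT, with the largest spread of this group. TIC, a nuclear regulator of the clock and of metabolism, was the most abundant of them per kilobase and ran from 490 to 582 CPM, highest in BP12-2 replicate 1 and WT replicate 3 but by at most 1.19-fold. LWD1 and LWD2, WD-repeat coactivators of CCA1, ran from 55.2 to 70.7 and from 17.8 to 26.1 CPM. JMJD5, a jumonji-domain protein that affects clock period, was counted at 0.757 to 1.45 CPM.

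GRP7 (AT2G21660, chr2:9265084-9266557) and GRP8 (AT4G39260, chr4:18273829-18275216) encode RNA-binding proteins that peak in the evening and limit their own transcripts through splicing. GRP7 was at 416, 131 and 130 CPM in BP12-2 and at 144, 74.7 and 391 CPM in WT. GRP8 was at 321, 172 and 172 CPM in BP12-2 and at 175, 143 and 268 CPM in WT. BP12-2 replicate 1 and WT replicate 3 were high for both, and WT replicate 2 was the lowest library of all 6. Per kilobase of exon GRP7 exceeded GRP8 in BP12-2 replicate 1 (ratio 1.23) and WT replicate 3 (1.39), and lay below it in the other 4 libraries (0.495 to 0.782). Averaged over all libraries they were the most abundant members per kilobase, at 189 CPM per kilobase for GRP8 and 184 for GRP7, ahead of LNK2 at 147, whereas PRR3 was lowest at 0.380.

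The CDF genes encode DOF repressors of CO and FT, and their transcripts did not share an order of libraries. CDF2 (AT5G39660) was at 27.9, 40 and 40.4 CPM in BP12-2 and at 49.2, 35.2 and 24.2 CPM in WT, lowest where LHY was lowest. CDF1 and CDF3 differed by at most 1.24-fold within a genotype. CDF5 ran from 2.99 to 6.02 CPM in BP12-2 and from 5.36 to 6.47 CPM in WT, a difference of -0.63 ± 0.27 on the log2 scale (SE, n = 3 per group, edgeR adjusted p = 0.273). Of its exon bases 59.9% overlap AT1G69572, which had 0 counts in every library. CO, the activator of flowering in long days, was low at 0.898 to 1.80 CPM. COL2 (AT3G02380), a relative of CO, was at 80.9, 154 and 148 CPM in BP12-2 and at 137, 108 and 69.6 CPM in WT. CO, COL1 and COL2 were all lowest in BP12-2 replicate 1 and WT replicate 3. Among the tested clock genes COL2 was thus the one carrier of an evening element that was lowest in these libraries. All exon bases of COL1 (100%) and 31.8% of those of COL2 overlap other genes. AT5G15845, which overlaps COL1, was counted at 2.0 to 3.99 CPM, against 30.8 to 50.5 CPM for COL1. AT3G02370 and AT3G02390, which overlap COL2, were counted at 0 to 1.64 CPM. PIF4 (AT2G43010), a bHLH factor that drives stem growth and is repressed by the evening complex, was at 70.4, 32.9 and 37.1 CPM in BP12-2 and at 36.2, 42.1 and 52.9 CPM in WT, higher in the libraries in which ELF3, ELF4 and LUX were also higher. PIF5, its relative, ran from 100 to 124 CPM.

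Across the 40 tested clock genes, 13 (32.5%) differed by at least 2-fold between the highest and lowest WT library on the scale of CPM + 0.5, against 5.8% of all 19436 tested genes. Within BP12-2 it was 10 (25%) against 4.9%. Both conditions held for 9 of the 40 (22.5%), which were LHY, RVE1, RVE2, RVE8, PRR7, PRR5, GI, ELF4 and GRP7, against 2.1% of all genes. The median spread was 0.57 for the clock genes and 0.32 for all genes in WT, and 0.66 and 0.32 in BP12-2 (log2). At the other end PRR9, ZTL, RVE6, CDF3 and PIF5 stayed within a spread of 0.24 in both genotypes, under the median of all genes. FKF1, PRR3 and RVE3 are outside these counts because they failed the filter.

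**Figure D3:**
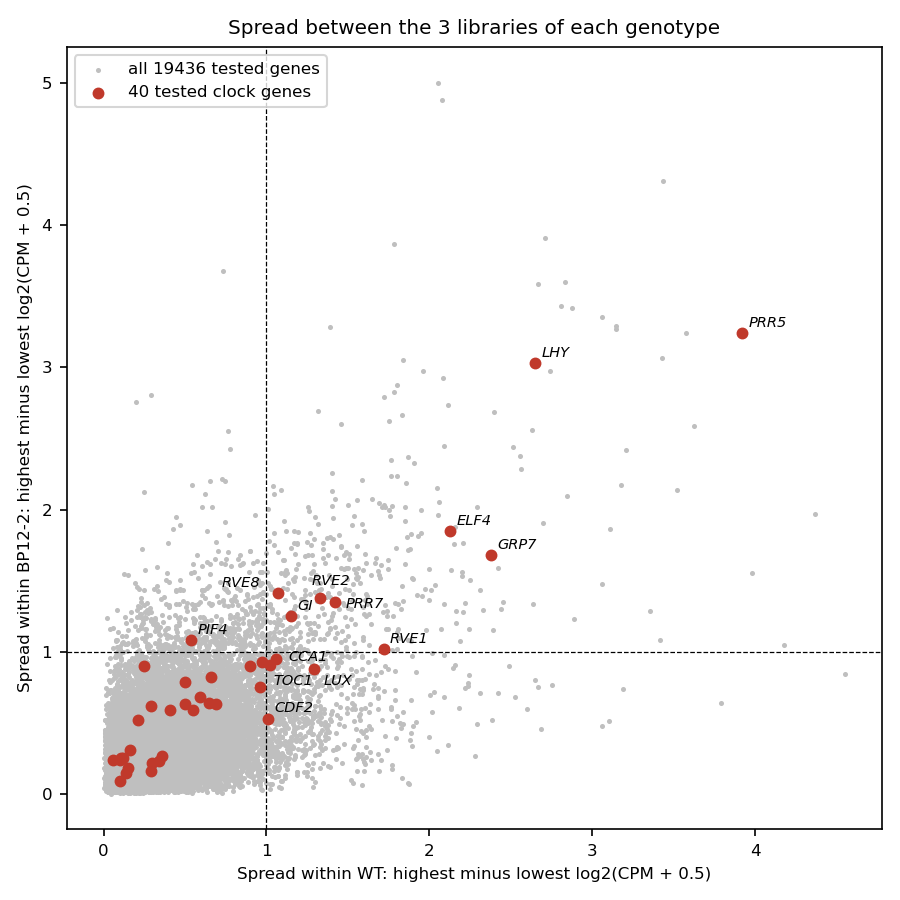
Each point is a tested gene, with its highest minus lowest log2(CPM + 0.5) among the WT libraries on the x axis and among the BP12-2 libraries on the y axis, clock genes in red and all 19436 tested genes in gray, and dashed lines at a 2-fold difference. PRR5 and LHY lie at the upper right, at 3.92 and 2.65 on the x axis, and 9 of 40 clock genes lie beyond both lines.

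BP12-2 replicate 1 and WT replicate 3 were both the highest library of their genotype for 18 of the 40 clock genes (45%), against 19.5% of all tested genes, and both the lowest for 15 (37.5%), against 19.2%. Either held for 33 of 40 (82.5%), against 38.6% of all tested genes. The 7 exceptions were RVE5, RVE6, PRR9, ZTL, LWD1, CDF1 and PIF5. The counts go by rank alone, so near ties are among the 33. In WT, RVE4 was at 20.1 CPM in replicate 2 and 19.9 CPM in replicate 3, and CDF3 differed by 1.04-fold. BP12-2 replicate 1 and WT replicate 3 were singled out for their clock transcripts. The clock shares above and the clock correlation below therefore restate that choice and are not separate support for it. The deviations of BP12-2 replicate 1 from its genotype mean and those of WT replicate 3 from its own had a correlation of 0.97 across the 40 clock genes and of 0.49 across all tested genes. These are correlations across genes of the same libraries, given as a description, since genes are not replicates and the deviations of 3 libraries from their own mean sum to 0. The remaining libraries paired less closely, BP12-2 replicate 2 with WT replicate 1 (0.88 across clock genes, 0.29 across all) and BP12-2 replicate 3 with WT replicate 2 (0.87 and 0.22). In the former pair 13 of the 40 clock genes were both highest and 4 both lowest of their genotype. Over all tested genes the shares were 16.1% and 15.5%, so the 4 both lowest were not in excess of the general share.

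Tissue markers did not share a direction in these libraries. The summed level of 8 root markers was 219, 257 and 242 CPM in BP12-2 and 234, 203 and 195 CPM in WT, lowest in BP12-2 replicate 1 and in WT replicate 3, with WOX5 near 0 (0.407 to 0.602 CPM). Of the 7 root markers tested, however, SCR and SHR were lowest of their genotype in both libraries and PLT1 and NRT2.1 highest in both, with median deviations from the genotype mean of 0.20 and -0.12 (log2). The summed level of 7 markers of green shoot was 33800, 31000 and 31100 CPM in BP12-2 and 25900, 24800 and 26700 CPM in WT, highest in BP12-2 replicate 1 and in WT replicate 3. CAB1 made up the largest share of that sum, and of the 7 markers 3 (CAB1, LHCB2.1 and FAMA) were highest in both libraries and 4 (RBCS1A, CA1, GLDP1 and SPCH) lowest in both, with median deviations of -0.12 and -0.09. The steps of the sums were smaller than those of LHY or PRR5, and the part of tissue share in the clock differences was not tested. In RNA from whole seedlings, fewer cells of a type and less RNA per cell cannot be told apart.

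Outside the clock set, genes with an evening element in the 500 bases before their start were more often high than low in BP12-2 replicate 1 and WT replicate 3. Of 872 such tested genes, 33.5% were highest of their genotype in both libraries and 11.2% were lowest in both, against 19.4% and 19.1% of the 19363 genes outside the set with any promoter. For the CCA1 binding site the shares were 22.5% and 17.1% of 2398 genes, and for the G-box 18.9% and 24.3% of 1980 genes, the G-box carriers being more often low than high. Among the clock genes themselves, 7 of the 8 tested carriers of the evening element were highest in both libraries, COL2 being the exception, against 18 of all 40 (45%). Of the 13 tested carriers of the G-box 4 were highest, 6 lowest and 3 neither. The libraries were singled out for the levels of these same clock genes, so the counts within the clock set are not separate support for the shares outside it. A promoter can hold more than 1 of these words, and LUX and BOA held both the evening element and the G-box.

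**Figure D4:**
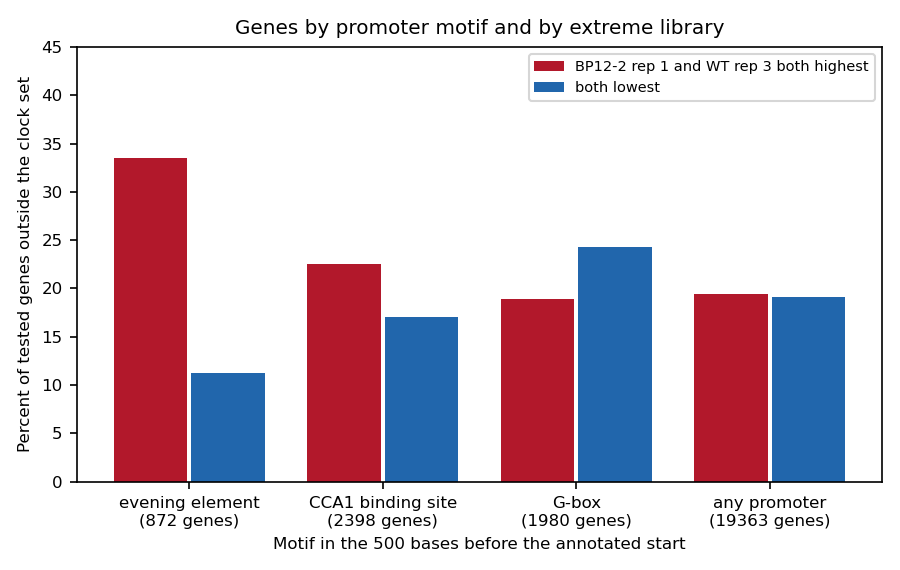
Bars give the percent of tested genes outside the clock set that were highest (red) or lowest (blue) of their genotype in both BP12-2 replicate 1 and WT replicate 3, by the word found in the 500 bases before the annotated start. Carriers of the evening element stand at 33.5% and 11.2%, against 19.4% and 19.1% for any promoter.

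The comparison that the design poses, BP12-2 against WT with both on rapamycin, called none of the 40 clock genes. The edgeR quasi-likelihood test called 13 of 19436 genes (0.0669%) at an adjusted p under 0.05, 12 lower (0.0617%) and 1 higher (0.00515%) in BP12-2. At an unadjusted p under 0.05 it gave 3 of the 40 clock genes (RVE4, PRR9 and CDF5) and 3544 of all genes (18.2%), and DESeq2, the edgeR exact test and limma voom also called 0 clock genes. The genotypes did not overlap for 2 of the 40, RVE4 above and PRR9 below WT, against 24.3% of all tested genes (12.1% above and 12.2% below). Of the 40 log2 fold changes 18 were positive and 22 negative, with a median of -0.03 against 0.005 for all genes. Their median size was 0.148 and their median standard error 0.264, against 0.182 and 0.159 for all genes, so the clock genes were less precisely compared than most.

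Without BP12-2 replicate 1 and WT replicate 3, in a fit on the other 4 libraries with 2 per genotype, the median standard error of the clock genes was 0.131, against 0.163 for all genes. The libraries left out were those that stood apart in these same genes. A smaller standard error of the clock genes follows from that choice, and the p-values of this fit carry the same limit. The log2 fold change of LHY went from 0.23 ± 0.82 to 0.26 ± 0.12, that of PRR5 from -0.49 ± 1.20 to 0.10 ± 0.34 and that of GRP7 from 0.15 ± 0.66 to 0.26 ± 0.27 (SE). The median size of the fold changes was 0.195 for the clock genes and 0.196 for all genes. None of the clock genes passed in this fit, whereas 38 of 19298 genes (0.197%) did. An unadjusted edgeR p under 0.05 was reached by 5 of the 40, which were CCA1, RVE4, RVE8, PRR9 and BOA, and by 19% of all genes. For CCA1 the difference was 0.38 ± 0.15 (adjusted p = 0.253) and for RVE8 0.37 ± 0.13 (adjusted p = 0.198), and the smallest adjusted p, for RVE4 (0.40 ± 0.14), was 0.195. PRR9 was at -0.24 ± 0.10 (adjusted p = 0.258), BOA at 0.91 ± 0.37 (adjusted p = 0.246) and CDF5 at -0.58 ± 0.31 (adjusted p = 0.359), each with the sign it had in all 6 libraries. All the BP12-2 columns carry a code in their names that differs from that of the WT columns and is not explained in the labels, and what it marks cannot be told apart from genotype.

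**Figure D5:**
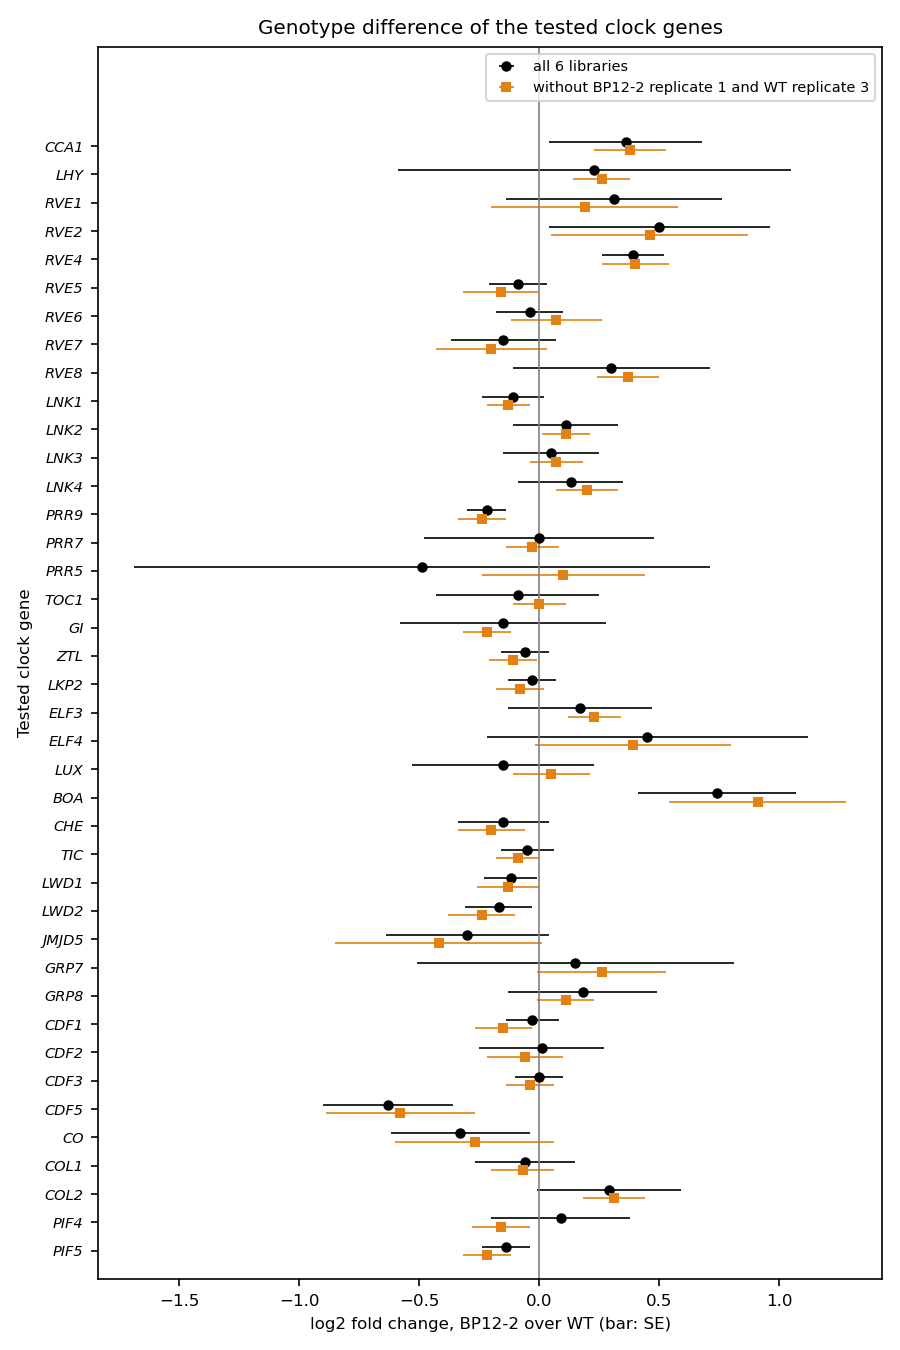
Log2 fold change of BP12-2 over WT for the 40 tested clock genes with bars of 1 standard error, from all 6 libraries (black circles) and without BP12-2 replicate 1 and WT replicate 3 (orange squares). The bar of LHY shrinks from 0.82 to 0.12 and that of PRR5 from 1.20 to 0.34, and none of these genes passed the test in either fit. The libraries left out were those that stood apart in these clock genes.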

How the data were processed

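RNA-seq was run on 6 libraries, 3 of the wild type and 3 of BP12-2. The authors deposited whole-number read counts per gene, not normalized; per the labels, reads were aligned with Bowtie to TAIR9 and counted with HTSeq, and edgeR was used for differential expression. The versions of these tools, the counting mode and strand use are not given in the sources. Columns outside the series numbered 0. Titles of the samples gave the groups and replicate numbers.

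Genes were filtered with filterByExpr (count minimum 10, total minimum 15), which left 19436 of 32313, and 8089 codes were at 0 in every library. Libraries were scaled by TMM (factors 0.972 to 1.021). Genotypes were compared with the quasi-likelihood F test of edgeR, 2-sided, with Benjamini-Hochberg adjustment over all tested genes and a threshold of 0.05, and a standard error is the size of the log2 fold change over the root of F. Spreads use log2(CPM + 0.5), which understates differences of low genes. DESeq2 1.42.0, limma 3.58.1 and edgeR 4.0.16 ran in R 4.3.3, and of the fits only the edgeR quasi-likelihood fit was tested on simulated data. No library repeated another (smallest chi-square per degree of freedom 10.9).

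Every one of the 43 genes could be named. Values per library were to be given for CCA1, LHY and the PRR, LNK, evening complex, GI and F-box, and GRP genes and for the widest-spread gene of each other group; RVE8, RVE4 and CDF5 were picked out after their values were seen. The genes and lists were chosen with earlier results of these data known. Alternatives were other scalings, filters, tests, thresholds and pseudocounts, a replicate block, each library left out, and the 4 libraries without BP12-2 replicate 1 and WT replicate 3. A promoter window of 250 bases was added after seeing the data. Names, exon lengths, overlaps and promoters came from the RefSeq annotation of TAIR10.1, which is not the authors' build, and no coordinates were converted. RefSeq names RVE3 ASG4, RVE4 LCL1, RVE7 EPR1, LUX PCL1, PIF5 PIL6, GRP8 CCR1, LWD1 ATAN11 and CHE TCP11.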

Additional observations from a re-analysis of the deposited data

How the results depend on the processing

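The count of clock genes passing the test was 0 under every alternative run, with the smallest adjusted p at 0.0927 (RVE4 without WT replicate 1). Over all genes, 13 passed with edgeR quasi-likelihood, 56 with no low-count filter (16 higher, 40 lower), 22 with limma voom (3 and 19), 620 with DESeq2 (284 and 336), 841 with the exact test (398 and 443), 38 in the other 4 libraries (2 and 36), 1 at a threshold of 0.01 and 463 at 0.1 (205 and 258). Leaving out 1 library gave 0 to 56, with 0 without BP12-2 replicate 3, 1 without BP12-2 replicate 2 or WT replicate 2, 2 without WT replicate 3 and 56 without WT replicate 1. The cause was not tested.

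The labels do not say whether equal replicate numbers pair the samples. Same-numbered libraries had correlations of -0.86, 0.72 and -0.90 across the clock genes and of -0.32, 0.07 and -0.33 across all. These values cannot settle a pairing, since the deviations within a genotype sum to 0 and follow the libraries that stood apart. The fit with a replicate block called 0 genes.

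The sign of 23 of the 40 log2 fold changes turned under some alternative, 3 of them (PRR7, CDF2 and CDF3) with another test, filter or scaling. PRR7 became 0.0103 with upper-quartile factors, 0.00338 when genes under a mean of 5 CPM were dropped and 0.0144 with limma voom. CDF2 became -0.0148 with library totals. CDF3 became -0.0271 with library totals, -0.00207 with no filter, -0.000339 with limma voom and -0.000734 with the replicate block. In the other 4 libraries RVE6 became 0.0662, PRR5 0.0982, LUX 0.0492, CDF2 -0.0560, CDF3 -0.0427 and PIF4 -0.158. With each library left out, log2 fold changes ran from -0.245 to 0.727 for LHY, -0.0175 to 0.957 for RVE1, -0.0732 to 0.0154 for RVE6, -0.323 to 0.0334 for RVE7, -0.0651 to 0.284 for LNK2, -0.104 to 0.22 for LNK3 and -0.0141 to 0.339 for LNK4. They ran from -0.605 to 0.571 for PRR7, -2.498 to 2.095 for PRR5, -0.43 to 0.33 for TOC1, -0.70 to 0.33 for GI, -0.12 to 0.0096 for LKP2, -0.12 to 0.53 for ELF3, -0.44 to 1.28 for ELF4 and -0.48 to 0.38 for LUX. They ran from -0.333 to 0.00061 for CHE, -0.65 to 1.05 for GRP7, -0.19 to 0.48 for GRP8, -0.0981 to 0.0615 for CDF1, -0.22 to 0.29 for CDF2, -0.0632 to 0.0558 for CDF3, -0.229 to 0.0958 for COL1 and -0.32 to 0.28 for PIF4. Turns were most frequent without WT replicate 3 (13 genes) and without BP12-2 replicate 3 (12). With a window of 250 bases the evening element was in 2.22% of promoters and still in 9 clock genes, the CCA1 binding site in 5 and the G-box in 13. With 3 libraries per genotype, PRR3, FKF1, JMJD5, CO and BOA rest on few counts in several libraries.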

Other observations

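Some genes outside the clock set whose transcripts are known to follow the clock also differed in the libraries that stood apart. Those libraries were singled out for clock transcripts, and this list was chosen with earlier results known. The values below are therefore a description and not separate support. Within WT 4 of the 12 genes differed by at least 2-fold, and within BP12-2 3 did. Of the 12 genes of this list, 4 were highest of their genotype in both BP12-2 replicate 1 and WT replicate 3 and 4 were lowest in both, against 19.5% and 19.2% of all tested genes. CAT3, a catalase that peaks in the evening, was at 3090, 1210 and 1460 CPM in BP12-2 and at 1130, 2160 and 3250 CPM in WT. It was highest in BP12-2 replicate 1 and WT replicate 3, like TOC1. CAT2, a catalase that peaks in the morning, was at 1430, 1680 and 1840 CPM in BP12-2 and at 2080, 1670 and 1050 CPM in WT, lowest in the same libraries. BBX32, a B-box protein of light signalling, was at 7.48, 26.9 and 20.8 CPM in BP12-2 and at 18.4, 17.2 and 8.85 CPM in WT, again lowest there. PIL1, a shade-induced bHLH factor, was too low for an order to be read, at 0.361 to 1.71 CPM. None of the 12 genes of this list passed the edgeR test between genotypes, and their log2 fold changes had a median of 0.07.

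Light input genes differed less between libraries. CRY1, a blue light receptor, was at 318, 237 and 237 CPM in BP12-2 and at 256, 258 and 310 CPM in WT, highest in BP12-2 replicate 1 and WT replicate 3, while PHYA, the far-red light receptor, ran from 230 to 248 CPM in all 6 libraries. Of the 14 light input genes none passed the edgeR test and none differed by 2-fold within a genotype. Of 10 further genes associated with the clock none passed either. SKIP, a splicing factor that acts on clock transcripts, was at 227, 236 and 226 CPM in BP12-2 and at 280, 251 and 247 CPM in WT, and CKB3, a subunit of a kinase that phosphorylates CCA1, was at 31.5, 33.8 and 35.7 CPM and at 42.9, 39.0 and 37.7 CPM. For both, the 3 BP12-2 libraries lay below the 3 WT libraries, as for 12.2% of all tested genes.

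Of the tissue markers, CA1, a carbonic anhydrase of green tissue, was at 1500, 1810 and 1610 CPM in BP12-2 and at 1100, 867 and 689 CPM in WT, and was named after its values were seen. The edgeR quasi-likelihood test did not call it (adjusted p = 0.0893), whereas DESeq2 (adjusted p = 8.49e-04) and the exact test of edgeR (adjusted p = 0.00211) did. EXPA7, a root hair expansin, was at 26.2, 22.4 and 19.9 CPM in BP12-2 and at 16.7, 11.6 and 11.6 CPM in WT. It behaved alike, with adjusted p = 0.101 by the edgeR quasi-likelihood test, 0.0155 by DESeq2 and 0.00826 by the exact test. The markers did not share this direction. FAMA was at 21.6, 14.6 and 16.6 CPM in BP12-2 and at 21.9, 24.1 and 24.1 CPM in WT (edgeR quasi-likelihood adjusted p = 0.213). Log2 fold changes were positive for 5 of the 7 tested root markers and for 5 of the 7 green shoot markers.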
